A study of Mus musculus with 69 samples.

Results

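The cytosolic ribosomal protein genes of the mouse were followed in the nucleus accumbens as RNA and as H3K79me2 chromatin peaks. Members were chosen by symbol: Rpl or Rps followed by a digit, plus Rpsa, Rplp0, Rplp1 and Rplp2, without pseudogenes (symbols with -ps) and without the Rps6k kinases. The rule found 93 genes among the 52636 rows of the counts table, 55 with large subunit symbols (Rpl, Rplp) and 38 with small subunit symbols (Rps, Rpsa). RefSeq lists 88 of the 93 as protein coding and the other 5 (Rpl6l, Rps12l1, Rps3a2, Rps3a3 and Rps4l) as pseudogenes, although their symbols lack the suffix. The rule also takes in Rps19bp1, which encodes a protein that binds the ribosomal protein RPS19 and is not itself one. The study compared male mice reared under Standard conditions with male mice exposed to early life stress (ELS), and asked how methylation of histone H3 at lysine 79 relates to later transcription in the medium spiny neurons of this region. RNA came from 32 whole-tissue libraries in 4 groups of 8: Standard with GFP (green fluorescent protein, the control), ELS with GFP, Standard with Dot1l overexpression, and ELS with Dot1l knockdown. All animals were male, and the labels give GFP or the Dot1l manipulation as the genotype of every RNA group. The labels name no promoter, vector, strain or age, and do not say which libraries share an animal, so p-values measure only the spread between these samples. For chromatin the authors deposited 1 list of H3K79me2 peaks per rearing group, with no spread over animals. In bulk tissue, fewer cells of a type and less RNA per cell cannot be told apart.

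Ribosomal proteins join ribosomal RNA to build the large and the small subunit of the cytosolic ribosome, and each assembled ribosome holds 1 copy of most of them. Their mRNAs are among the most abundant of most cells, are short, and typically start at a C within a run of pyrimidines (C and T), the terminal oligopyrimidine tract, through which mTOR signalling controls their translation. Many of these genes host small nucleolar RNAs (snoRNAs) in their introns. H3K79me2 is laid down by the methyltransferase DOT1L and is typically found over the first part of transcribed genes, just downstream of the start.

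A long pyrimidine run stood at the start of a minority of the promoters. RefSeq promoter sequences on GRCm38.p6, each of 300 bases with 250 before the start, matched 68 of the 93 members, with 80 promoters. A run of C or T of at least 10 bases touching the 21 bases around the start stood in 24 of the 80 (30.0%), against 7.11% of all 32851 promoters of the table. The annotated start itself was a C in 31.2% of member promoters and in 16.3% of all. The motif CCGGAAG or its complement CTTCCGG, of the ETS type, occurred in 33.8% of member promoters and in 8.86% of all. AAGATGG or CCATCTT, of the YY1 type, occurred in 15.0% against 6.34%, and TATAAA before the start in 3.75% against 7.59%. Both strands were searched except for TATAAA, the motifs were counted separately with no regard to overlap with one another, and a match is a description of letters.

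The longest runs are shown here because they are the clearest tracts among the members with a promoter sequence. They are followed by the 3 most abundant members and by 2 members that have an H3K79me2 peak and no RNA count. Each line gives 70 bases before the start and 20 from it, written 5′ to 3′ on the gene's strand, and the capitals mark the longest unbroken run of C or T that touches the bases around the start. The Rpl7a window is chr2:26910737-26910826 on the plus strand, Rpl27a is chr7:109519125-109519214 (plus), Rpl34 is chr3:130730318-130730407 (minus) and Rpl35 is chr2:39005112-39005201 (minus). Rpsa is chr9:120127696-120127785, Rpl26 is chr11:68901496-68901585, Rpl4 is chr9:64173317-64173406, Rpl13 is chr8:123102280-123102369 and Rpl24 is chr16:55966205-55966294, all on the plus strand.
Rpl7a: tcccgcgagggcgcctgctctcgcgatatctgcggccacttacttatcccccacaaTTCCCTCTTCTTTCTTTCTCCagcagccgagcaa
Rpl27a: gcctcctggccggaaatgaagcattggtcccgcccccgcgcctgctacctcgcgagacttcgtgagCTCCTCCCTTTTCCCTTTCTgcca
Rpl34: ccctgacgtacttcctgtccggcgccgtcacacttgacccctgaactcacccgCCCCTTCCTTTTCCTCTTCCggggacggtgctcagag
Rpl35: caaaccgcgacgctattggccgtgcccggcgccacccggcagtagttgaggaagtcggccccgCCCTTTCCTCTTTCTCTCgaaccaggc
Rpsa: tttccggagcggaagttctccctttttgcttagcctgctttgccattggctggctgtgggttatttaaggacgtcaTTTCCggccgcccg
Rpl26: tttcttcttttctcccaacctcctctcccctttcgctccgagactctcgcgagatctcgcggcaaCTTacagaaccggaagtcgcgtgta
Rpl4: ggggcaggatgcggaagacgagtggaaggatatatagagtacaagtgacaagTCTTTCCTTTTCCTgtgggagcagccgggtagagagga
Rpl13: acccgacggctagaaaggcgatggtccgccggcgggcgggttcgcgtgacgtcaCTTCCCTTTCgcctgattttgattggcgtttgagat
Rpl24: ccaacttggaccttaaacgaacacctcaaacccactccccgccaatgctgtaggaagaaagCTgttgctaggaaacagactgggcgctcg
Rpl7a has the longest run among the 68 members with a promoter sequence, at 21 bases, and Rpl27a and Rpl34 have 20. A further Rpl34 promoter, with its start at chr3:130730398, has a run of 8. Rpsa and Rpl26, the most abundant members, have runs of 5 and 3 bases at these annotated starts.

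The RNA libraries differed in depth by more than an order of magnitude. In mega counts (M), Standard GFP libraries held 0.314 to 9.8 M, ELS GFP 1.76 to 11.1 M, the overexpression group 2.48 to 7.88 M and the knockdown group 0.462 to 8.8 M. Standard GFP replicates 1, 4 and 5 and knockdown replicate 7 were under 1 M. The 10 most abundant features of a library took 36.1% to 59.6% of its counts. Dot1l, the targeted gene, had a median of 36.3 CPM (a gene's counts for every 1 M in its library, whose size was scaled by TMM) in Standard GFP with a range of 10.6 to 48.5. It had 35 (15.4 to 54.2) in ELS GFP, 37.7 (25.2 to 75) in the overexpression group and 38.4 (28.9 to 74.9) in the libraries labelled knockdown. Its log2 fold change was 0.33 for overexpression (SE 0.27, edgeR's quasi-likelihood test with Benjamini-Hochberg adjustment, adjusted p = 0.741) and 0.28 for those labelled knockdown, set against ELS GFP (SE 0.27, adjusted p = 0.985). The 4 groups overlapped, and Dot1l RNA was not lower in the libraries labelled Dot1l knockdown, so directions below belong to the labels. Summed over 10 medium spiny neuron markers, levels stood at 419 to 2120 CPM in Standard GFP libraries and 436 to 1470 CPM in ELS GFP. Among markers of other cells, Gfap (astrocytes) and P2ry12 (microglia) were at 0 in every library.

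Together the 93 members took only 0.0844% to 0.247% of a library's counts, with a median of 0.184%. Summed over members, Standard GFP libraries had 1020, 1820 and 2160 CPM (lowest, median, highest) and ELS GFP libraries 1210, 1670 and 2220 CPM. The overexpression libraries had 1430, 1840 and 2370 CPM and the knockdown libraries 1330, 1760 and 2030 CPM. The 4 ranges overlapped over most of their length. The scaling enters these sums. Overexpression replicate 1, the library with 2370 CPM, had a TMM factor of 0.53. By library total its sum was 1250 CPM, the lowest of its group. Standard GFP replicate 6 had a factor of 0.565, with 1980 CPM scaled and 1110 CPM by library total. The large subunit symbols took the larger part in every group, with a median sum of 1150 CPM in Standard GFP against 558 CPM for the small subunit. The small subunit sum had a median of 606 CPM in ELS GFP, 686 CPM with overexpression and 640 CPM with knockdown, and its ranges overlapped too.

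Of the 93 members, 83 had a count in some library and 75 passed the filter on low counts in a table of 14016 genes tested. The tested members had a median mean level of 18.7 CPM over the 32 libraries, against 10.5 CPM for all genes tested, and ranged from 1.55 CPM (Rps3a2) to 86.8 CPM (Rpsa). CPM is not corrected for transcript length, so levels of different genes are not comparable as molecules. The highest level was that of Rpsa, a small subunit protein that is also known as the laminin receptor, with 86.8 CPM, followed by Rpl26 with 85.7 CPM and Rpl4, which lines the exit tunnel, with 80.1 CPM. Then came the stalk protein Rplp1 with 68.8 CPM and Rps24 with 52.0 CPM. Others among the first 10 were Rpl5 (45.6 CPM), which carries the smallest ribosomal RNA of the large subunit into the ribosome, Rpl7 (43.8 CPM), the stalk protein Rplp2 (42.7 CPM) and Rps6 (41.8 CPM), the substrate of the S6 kinases. Rplp0, the stalk base that holds Rplp1 and Rplp2, had 28 CPM. In all, 20 tested members lay under 10 CPM and 5 above 50 CPM.

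**Figure D1:**
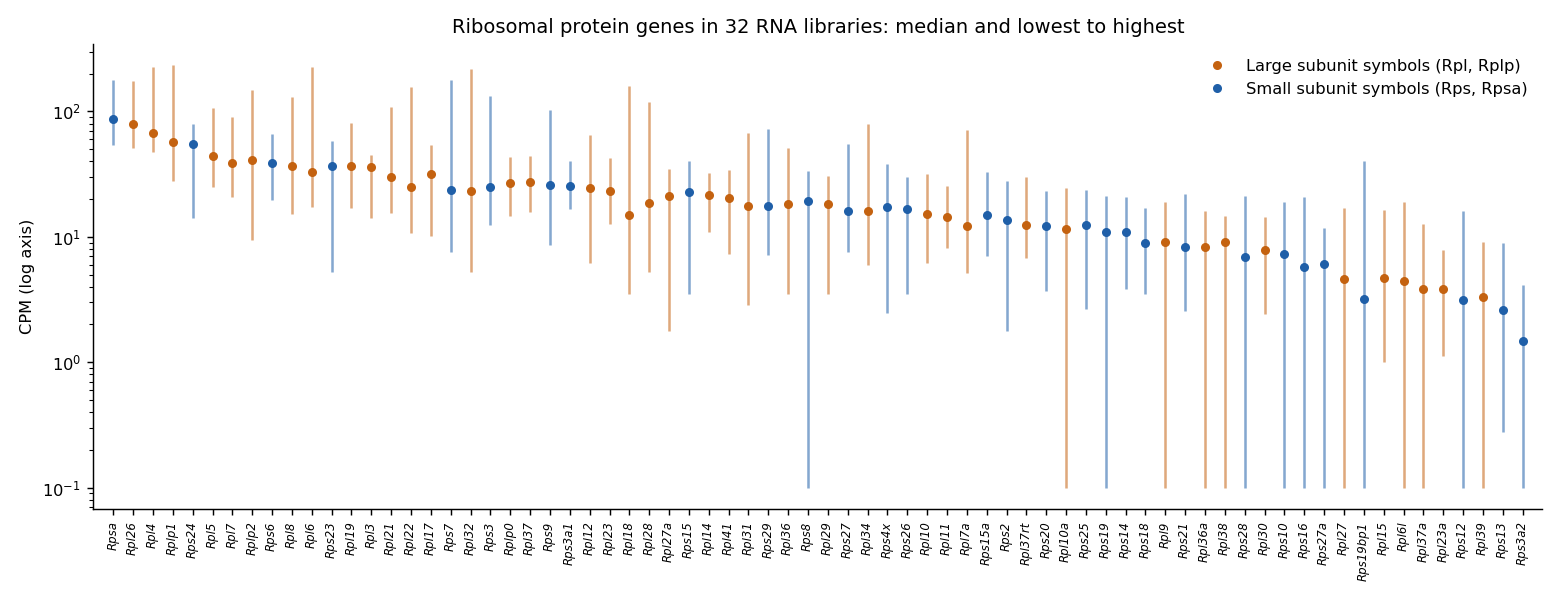
RNA level of 72 tested ribosomal protein genes, ordered by mean level, with the median (point) and the lowest to highest library (line) in CPM on a log axis over 32 libraries, and values of 0 drawn at 0.1. Rpsa, Rpl26 and Rpl4 lead, and lines that reach far above the point, as for Rpl18, Rpl32 and Rpl6, mark genes with 1 or 2 libraries far above the rest.

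The first 3 in this order did not differ beyond their spread. In Standard GFP, Rpsa had 54.0, 76.5 and 178 CPM (lowest, median, highest), Rpl26 had 51.0, 78.7 and 174 CPM, and Rpl4 had 47.8, 62.5 and 224 CPM. In ELS GFP the same genes had medians of 78.8, 79.0 and 68.4 CPM. Medians were of like size in both groups, which overlapped. The highest values of Rpl26 came from Standard GFP replicates 1 and 5, at 170 and 174 CPM, and those of Rpl4 from Standard GFP replicate 5 and ELS GFP replicate 2, at 224 and 212 CPM. Single libraries stood out for other members as well: in 12 of 75 members (16%) the highest library was at least 2 times the next of the 32, against 21.4% of all genes tested. The highest ratio was 5.34 for Rpl32 in overexpression replicate 1, then 3.43 for Rpl28 in the same library and 3.07 for Rpl34 in Standard GFP replicate 5. The highest library was Standard GFP replicate 5 for 12 members, overexpression replicate 1 for 11 and ELS GFP replicate 2 for 7. The TMM factors of these libraries were 1.05, 0.53 and 0.882, and a lower factor raises every CPM of a library. The median coefficient of variation among the Standard GFP libraries was 0.503 for members and 0.615 for all genes tested.

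In 10 members no library held a single count: Rpl13, Rpl24, Rpl32l, Rpl35, Rpl35a, Rpl7l1, Rps12l1, Rps27rt, Rps3a3 and Rps4l. Rpl13, Rpl24, Rpl35 and Rpl35a encode core large subunit proteins that every cell uses, so a 0 here is a listed value and no measure of absence. With gene models from RefSeq and from the peak lists together, all 10 overlap another model and 8 lie wholly inside one. With RefSeq alone, 9 overlap another gene and 5 lie inside one. Shares over all genes were not computed for the wider measure. Among the 8 are Rpl13 inside Gm20388 (15299 counts over the 32 libraries) and Rpl7l1 inside Gm26904 (723). Rpl35a inside Gm17106 (36) and Rps4l inside Tmtc1 (13838) are others. Rpl24 shares 5095 bp with Gm28037 (50 counts), and Rpl35 shares 4 bp with Wdr38 (55 counts). The sources used here do not say how reads in overlapping models were counted, and the part of overlap in the zeros was not tested. Of all members, 46 (49.5%) overlap another RefSeq gene, against 40.1% of protein-coding genes, and 30 (32.3%) hold a snoRNA within their span, against 1.7%. Member spans are short, with a median of 3139 bp against 17169 bp.

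Copies with a trailing l or l1 in their symbols had low listed values beside their parent genes. Rpl22l1, the paralog of Rpl22, had a mean of 0.955 CPM against 32.9 CPM for Rpl22, and Rps27l had 0.944 CPM against 17.3 CPM for Rps27. Rpl3l, known as the striated muscle form, had 0.365 CPM and was at 0 in 18 of 32 libraries, against 35.4 CPM for Rpl3. The germline forms Rpl10l and Rpl39l had 5 and 2 counts over all libraries, against means of 15.7 CPM for Rpl10 and 3.36 CPM for Rpl39, and Rpl36al had 1 count against 8.51 CPM for Rpl36a. Rpl6l, a pseudogene in RefSeq, was the only one of these copies to pass the filter, with 4.95 CPM against 40.2 CPM for Rpl6. Rpl32l and Rpl7l1 and the RefSeq pseudogenes Rps12l1 and Rps4l were at 0, beside Rpl32 (29.6 CPM), Rpl7 (43.8 CPM), Rps12 (3.66 CPM) and Rps4x (17.1 CPM). Each of the copies at 0 lies wholly inside another gene model, and as above a 0 is no measure of absence. Rpl13a, a core large subunit protein named here after its values were seen, also had few counts (159). The table also has 291 named ribosomal pseudogenes, of which 135 had counts, 20809 in all against 290271 for the members (7.17%). Rpl3-ps1 held 4868 counts, Rpl34-ps1 2139 and Rpl19-ps11 1969. For some members the named pseudogenes came near the parent or passed it. They held 1232 counts against 685 for Rpl23a (180%) and 599 against 570 for Rps13 (105%). For Rpl34 and Rpl3 they held 81.4% and 81.0% of the parent's counts. Near-identical copies can divide reads, so levels of members with counted pseudogenes are uncertain.

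ELS against Standard rearing, both with GFP, asks what rearing changes in control animals. Of the 75 members tested, 45 had a log2 fold change above 0 and 30 below, with a median of 0.06 against -0.01 for all genes tested. Members stood on both sides: the large subunit genes Rpl10a, Rpl15, Rpl7a and Rpl31 were higher in ELS at an unadjusted p under 0.05, and Rpl18, Rpl22, Rpl6 and Rpl21 lower. With edgeR's quasi-likelihood test 0 of 75 passed an adjusted p of 0.05 (0% of all genes tested), and limma voom with quality weights also called 0. DESeq2 called 1, Rpl18, among 54 genes in all, and gave no adjusted p for 8 members. At an unadjusted p under 0.05, 4 members were higher (5.33%, against 4% of all genes) and 4 lower (5.33%, against 7.73%), shares near the background. The higher count was 7 without Standard GFP replicate 3 or ELS GFP replicate 6 and 2 without Standard GFP replicate 7 or ELS GFP replicate 2. The lower count was 2 without Standard GFP replicate 5 or 6 or without ELS GFP replicate 3 or 6.

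Rpl10a, a protein of the large subunit's L1 stalk, had 0, 7.43 and 11.1 CPM in Standard GFP (lowest, median, highest) and 8.39, 12.1 and 24.5 CPM in ELS GFP. All 8 ELS libraries lay above the Standard median, and the groups overlapped between 8.39 and 11.1 CPM. Its log2 fold change was 0.80 (SE 0.30), with an adjusted p of 0.229 by edgeR's quasi-likelihood test with Benjamini-Hochberg adjustment. Rpl15, which sits in the core of the large subunit, had 1.00, 2.93 and 5.22 CPM in Standard GFP, against 3.66, 5.67 and 9.01 CPM in ELS GFP. Again all 8 ELS libraries lay above the Standard median, with a log2 fold change of 0.88 (SE 0.42 and adjusted p = 0.399). These 2 genes are low among the members. Rpl7a had 5.16, 10.9 and 18.9 CPM in Standard GFP, against 8.59, 14.8 and 71.0 CPM in ELS GFP, where replicate 2 was far above the others. Its log2 fold change of 0.96 (SE 0.35 and adjusted p = 0.227) was 0.46 without that library. Rpl31 had a median of 12.6 CPM in Standard GFP, against 17.8 CPM in ELS GFP, with 67.8 CPM in the same replicate 2. Its log2 fold change of 0.86 (SE 0.39 and adjusted p = 0.375) was 0.41 without it.

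At the lower members, 1 or 2 Standard libraries stood far above the rest. Rpl18, a core large subunit protein, had 3.52, 15.1 and 160 CPM in Standard GFP, against 7.10, 13.9 and 18 CPM in ELS GFP. Standard GFP replicates 1 and 6 had 160 and 129 CPM, and the other Standard libraries lay at 20.1 CPM or below, among the ELS values. Replicate 1 held 44.4% of the group's Rpl18. The log2 fold change was -1.82 (SE 0.50, edgeR's quasi-likelihood test, adjusted p = 0.12), while the log2 ratio of the medians was -0.13 and 2 of 8 ELS libraries lay above the Standard median. Rpl18 shares bases with Sphk2 in RefSeq, and without strand reads of the 2 genes cannot be told apart. Rpl22 had 10.7, 21.8 and 157 CPM in Standard GFP, against 13.3, 23.4 and 33.3 CPM in ELS GFP, with high values in Standard replicates 1 (157 CPM) and 5 (113 CPM), both shallow libraries. Its log2 fold change was -0.99 (SE 0.40 and adjusted p = 0.289), while the ratio of the medians had the other sign, at 0.10 on the log2 scale. Rpl6 had 20.5, 29.1 and 226 CPM in Standard GFP, against 17.6, 32.8 and 40.2 CPM in ELS GFP. Only Standard replicate 6 was high, and the log2 fold change of -0.83 (SE 0.38 and adjusted p = 0.383) was 0.09 without it. Rpl21 had medians of 32.6 and 28.9 CPM in Standard and ELS GFP, with 109 and 84.5 CPM in Standard replicates 6 and 5. Its log2 fold change of -0.60 (SE 0.29 and adjusted p = 0.406) was -0.25 without replicate 6.

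**Figure D2:**
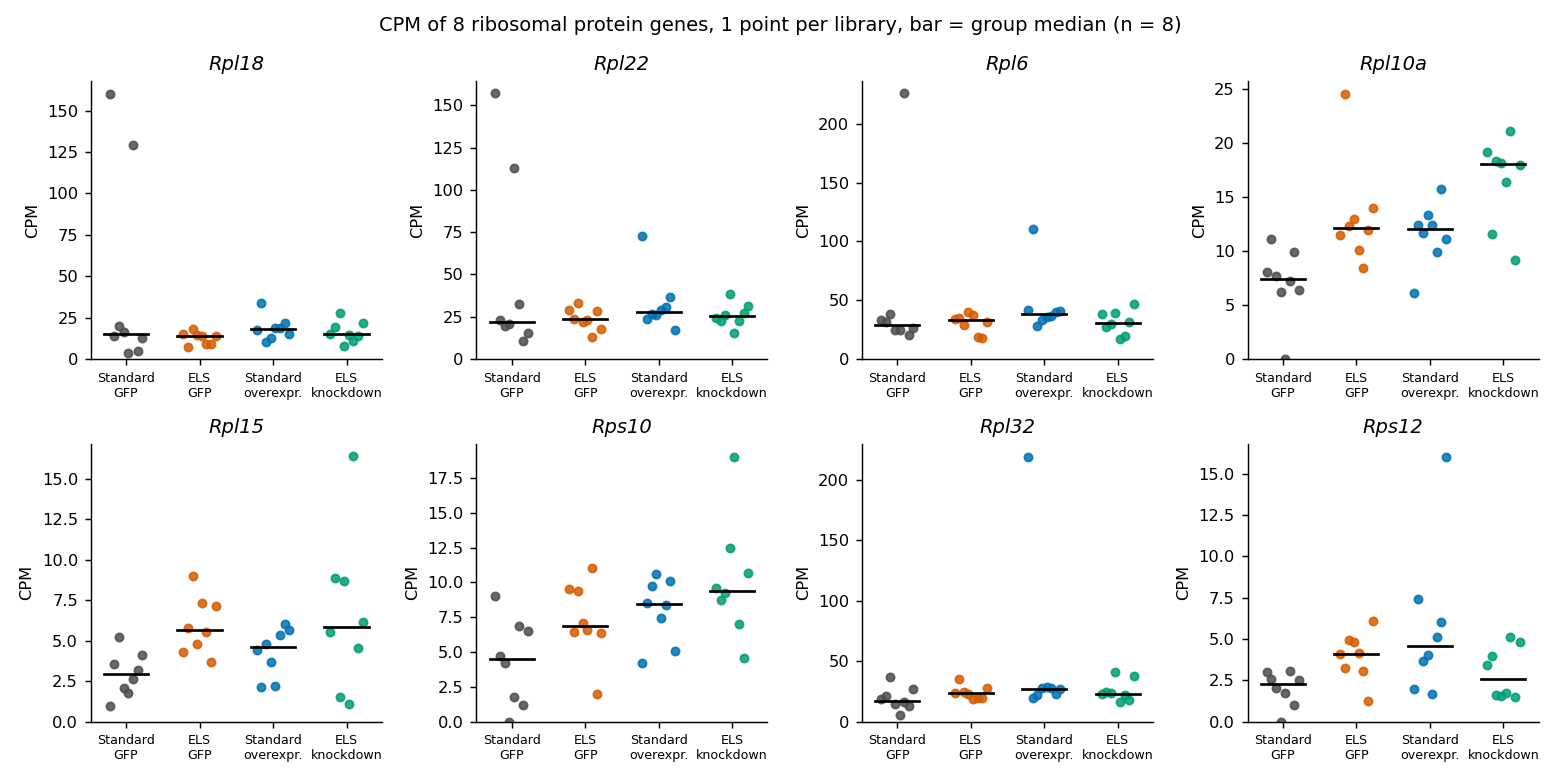
RNA level in CPM (vertical axis, linear, own scale per gene) of 8 ribosomal protein genes in each library (point), with the group median (bar, n = 8), in the 4 RNA groups. Rpl18, Rpl22 and Rpl6 show 1 or 2 Standard GFP libraries above 100 CPM over like medians, Rpl10a and Rpl15 show all 8 ELS GFP libraries above the Standard GFP median, and Rpl32 shows overexpression replicate 1 apart.

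Other members with the smallest p in this comparison were of the small subunit on the higher side. Rps13 had a log2 fold change of 1.01 (SE 0.50), Rps12 of 0.91 (SE 0.46), Rps10 of 0.69 (SE 0.39) and Rps24 of 0.38 (SE 0.21). Of 8 ELS libraries 4 lay above the Standard median for Rps13, and 7 for each of Rps12, Rps10 and Rps24. Rps13 is low, with means of 3.74 CPM in ELS GFP and 1.94 CPM in Standard GFP. Named pseudogenes of Rps10 held counts equal to 64.6% of those of Rps10. On the lower side were Rpl7 with -0.39, Rps27 with -0.42, Rpl34 with -0.35 and Rpl26 with -0.25. Without Standard GFP replicate 5, Rpl34 turned to 0.20 and Rps27 and Rpl7 had -0.10 and -0.22. Rpl26 turned to 0.15 without the libraries under 1 M and had -0.06 without Standard GFP replicate 1. Rpl7 had 46.8 CPM as the Standard median and 35.3 CPM as the ELS median, and 0 of 8 ELS libraries lay above the Standard median (SE 0.23, edgeR adjusted p = 0.544). By subunit, the median log2 fold change was 0.06 over 43 large and 0.07 over 32 small subunit members, and all 8 members under an unadjusted p of 0.05 were of the large subunit.

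Markers of several cell types lay mostly below 0 in ELS GFP beside these values, and 0 of them passed an adjusted p of 0.05 with edgeR. At an unadjusted p under 0.05, 5 of 10 medium spiny neuron, 4 of 7 astrocyte, 2 of 7 oligodendrocyte and 2 of 6 microglia markers were lower. Among ependymal markers 1 of 2 was lower and among endothelial markers 0 of 5, and of all genes tested 7.73% were lower. Of the 10 medium spiny neuron markers 9 lay below 0 at a median log2 fold change of -0.89. All 7 astrocyte markers tested lay below 0 at -0.64, with sums of 1660 to 3110 CPM in Standard GFP and 1090 to 2540 CPM in ELS GFP. All 7 oligodendrocyte markers lay below 0 at -0.63 (515 to 1000 against 368 to 950 CPM), and all 6 microglia markers at -0.69 (383 to 2780 against 582 to 1210 CPM). Endothelial markers had a median of 0.29, and the 2 ependymal markers tested, 1 on each side of 0, had -1.44. The part of these shifts in the ribosomal values was not tested.

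Dot1l overexpression against GFP, both in Standard animals, had the largest share of members on 1 side of 0 among the 3 comparisons with TMM scaling. Of the 75 tested members 58 lay above 0, with a median log2 fold change of 0.24 against 0.02 for all genes tested, of which 51.5% lay above 0. With library totals alone 59 lay above 0 here and 59 in the knockdown comparison. Of the small subunit members 28 of 32 lay above 0 at a median of 0.28, and of the large subunit members 30 of 43 at 0.20. At an unadjusted p under 0.05, 8 members were higher (10.7%, against 4.59% of all genes), 4 of each subunit, and 1 lower (1.33%, against 6.28%). Under an adjusted p of 0.05, edgeR's quasi-likelihood test, DESeq2 and limma voom with quality weights each called 0 of the members (edgeR: 0% of all genes). DESeq2 called 35 genes in all here and gave no adjusted p for 5 members. The higher count was 4 without Standard GFP replicate 7 or 8 and 5 without overexpression replicate 4 or 7. The lower count was 0 without Standard GFP replicate 1 or 6 and 2 without Standard GFP replicate 2, 7 or 8 or overexpression replicate 6. The median of the members stayed between 0.15 and 0.31 with any 1 library left out. This comparison shares the Standard GFP libraries with the ELS comparison, so likeness between them is not read as a result.

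On the small subunit, Rps12 had 0, 2.28 and 3.04 CPM in Standard GFP and 1.65, 4.57 and 16 CPM with overexpression. Of its overexpression libraries 6 of 8 lay above the Standard median, replicate 8 was the highest, and the groups overlapped. The log2 fold change was 1.43 (SE 0.46, adjusted p = 0.194 by edgeR's quasi-likelihood test with Benjamini-Hochberg adjustment) and 1.01 without replicate 8. Rps10 had medians of 4.48 and 8.46 CPM (log2 fold change 0.82, SE 0.39, 7 of 8 above) and Rps9 of 20.1 and 27.8 CPM (0.68, SE 0.32, 7 of 8 above). Rps9 reached 102 CPM in overexpression replicate 1 and had 0.26 without it.

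On the large subunit, Rpl32 had 5.28, 17.5 and 37.2 CPM in Standard GFP and 19.8, 27.3 and 219 CPM with overexpression. Overexpression replicate 1 alone held 55.5% of the group's Rpl32, and the other libraries overlapped those of Standard GFP. All 8 overexpression libraries lay above the Standard median. The log2 fold change of 1.30 (SE 0.40, edgeR adjusted p = 0.178) was 0.33 without replicate 1. Rpl10a had a median of 12 CPM against 7.43 CPM in Standard GFP, a log2 fold change of 0.63 (SE 0.30 and adjusted p = 0.423), with 7 of 8 libraries above the Standard median. Rpl31 had medians of 18.1 and 12.6 CPM (0.82, SE 0.39, 7 of 8 above). The stalk protein gene Rplp2 had 17.6, 39.5 and 51.7 CPM in Standard GFP and 29.4, 45.0 and 148 CPM with overexpression, and its log2 fold change of 0.68 (SE 0.31) was 0.28 without replicate 1. The lower member was Rpl18 at -1.28 (SE 0.50, adjusted p = 0.29). Its median was higher with overexpression, at 18.2 against 15.1 CPM, with 6 of 8 libraries above the Standard median, and without Standard GFP replicate 1 the value was -0.66. Of the other members below 0, all at an unadjusted p of 0.05 or more, those with the smallest p were Rpl21 and Rpl34 (-0.54 each), Rpl22 (-0.53), Rps27 (-0.45), Rpl6 (-0.25), Rpl4 (-0.24) and Rpl26 (-0.19). Without Standard GFP replicate 6 Rpl6 turned to 0.67 and Rpl21 had -0.19. Without replicate 5 Rpl34 turned to 0.01 and Rpl4 to 0.12, and Rps27 had -0.12. Without replicate 1 Rpl22 turned to 0.10 and Rpl26 to 0.01.

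**Figure D3:**
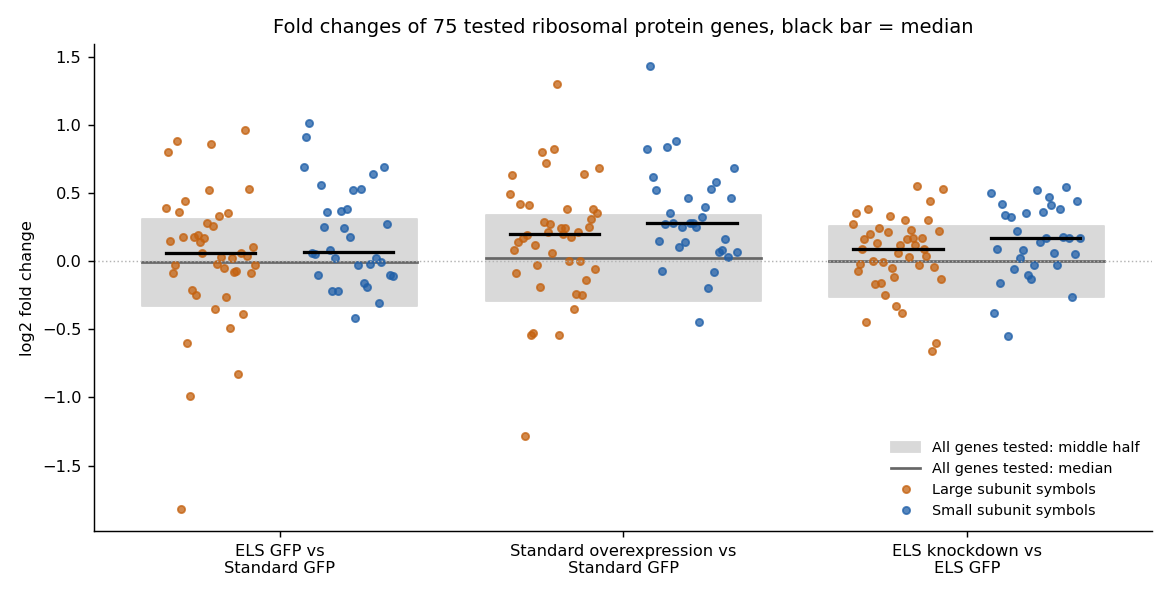
Log2 fold change (vertical axis) of each of the 75 tested ribosomal protein genes (points, 43 large and 32 small subunit symbols) in 3 comparisons, with the member median (black bar) and the middle of all 14016 genes tested (grey, 25th to 75th percentile). The points lie around 0 for ELS, and 58 of 75 lie above 0 for overexpression.

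In the overexpression group 9 of 10 medium spiny neuron markers had log2 fold changes below 0 (median -0.51), as did all 7 oligodendrocyte markers (median -0.47), while astrocyte markers had a median of -0.01 and microglia markers -0.31. Their summed levels were 344 to 2130 CPM for the neurons and 395 to 812 CPM for the oligodendrocytes. Their part in the ribosomal values was not tested.

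The libraries labelled Dot1l knockdown were set against ELS GFP. The members' median log2 fold change was 0.12 against 0 for all genes tested, and 49 of 75 lay above 0, 23 of 32 in the small and 26 of 43 in the large subunit. At an unadjusted p under 0.05, 0 members were higher (against 2.23% of all genes) and 0 lower (against 3.95%). With an adjusted p of 0.05, edgeR's quasi-likelihood test, DESeq2 and limma voom called 0 members (edgeR: 0% of all genes). DESeq2 called 3 genes in all and gave no adjusted p for 4 members. The 2 smallest p belonged to Rpl17 and Rpl7. Rpl17 had 27.5, 38.5 and 54.2 CPM in ELS GFP and 10.1, 28.5 and 42.2 CPM in the libraries labelled knockdown, a log2 fold change of -0.45 (SE 0.23 and adjusted p = 0.828), with 1 of 8 libraries above the ELS median. Rpl7 had 26.5, 35.3 and 46.1 CPM and 27.4, 47.7 and 84.5 CPM, a log2 fold change of 0.44 (SE 0.23 and adjusted p = 0.846), with 7 of 8 above. The groups overlapped for both genes. Rpl9 had -0.60 (SE 0.35, 1 of 8 above the ELS median) and Rps25 0.52 (SE 0.28, 5 of 8 above). Rpl7a had -0.66 (SE 0.34) and -0.16 without ELS GFP replicate 2, its high library. Rplp2 had 0.53, Rps10 0.50, Rps9 0.44 and Rps15 0.42, and Rps16 -0.55, Rpl34 -0.38, Rps12 -0.38, Rpl30 -0.33 and Rpl3 -0.12. All 6 microglia markers lay above 0 here (median 0.47) and all 5 endothelial markers below (median -0.50), and medium spiny neuron markers had a median of 0.08. Their part in the result was not tested. This comparison shares the ELS GFP libraries with the first.

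Over all 4 groups in 1 test, 7 of 75 members had an unadjusted p under 0.05, against 12.4% of all genes, and 0 passed an adjusted p of 0.05, against 1.27%. Among the 7 were Rpl18 (edgeR's quasi-likelihood test, adjusted p = 0.0977), Rpl10a (0.132), Rpl32 (0.175), Rps12 (0.296), Rps10 (0.349) and Rpl7a (0.391). Rpl10a had its lowest median in Standard GFP, at 7.43 CPM, against 12.1 CPM in ELS GFP, 12 CPM with overexpression and 18 CPM in the libraries labelled knockdown. In each of the 3 comparisons the groups overlapped for every tested member. The share of all genes tested with such overlap was not computed, so this is not read as a result about the members.

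Other genes of the translation machinery were described from lists. Rack1, a small subunit protein outside the symbol rule, had log2 fold changes of 0.23 for ELS, 0.64 for overexpression (SE 0.30, edgeR adjusted p = 0.423) and 0.14 for knockdown. Fau, which encodes a small subunit protein fused to a ubiquitin-like one, had 0.11, 0.30 and 0.08. The mitochondrial ribosomal proteins, 70 of 78 tested, had medians of 0.00, 0.01 and 0.09 in the 3 comparisons, with 2 higher and 6 lower, 2 and 5, and 1 and 2 at an unadjusted p under 0.05. Initiation factors, 49 of 56 tested, had medians of -0.04, 0.05 and 0.10, with 2 higher and 7 lower (14.3%), 2 and 3, and 3 and 0 at an unadjusted p under 0.05. Elongation factors and other mRNAs with a pyrimidine tract, 10 genes, had medians of -0.02, -0.07 and 0.04, and only Npm1 (nucleophosmin, a nucleolar chaperone) was under an unadjusted p of 0.05, at 0.65 for ELS (edgeR adjusted p = 0.325). The 22 ribosome biogenesis genes had medians of -0.13, -0.12 and 0.21, with 2 higher and 2 lower, 0 and 3, and 2 and 0 at that p. The 11 growth control genes tested (mTOR, TSC and the like) had 0.08, -0.14 and 0.09, with 0 higher and 4 lower for ELS (36.4%, against 7.73% of all genes), 1 and 2 for overexpression and 0 and 0 for knockdown. No gene of these lists passed an adjusted p of 0.05. In the overexpression comparison the cytosolic members' median of 0.24 thus stood beside 0.01 for the mitochondrial ribosomal proteins, and whether the lists differ was not tested.

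In chromatin, the authors' lists gave 91 H3K79me2 peaks at 56 of the 93 members (60.2%) in Standard animals and 63 peaks at 42 members (45.2%) in ELS animals. Among genes tested for RNA, 57.0% had a Standard peak and 52.8% an ELS peak, and among tested members 62.7% and 46.7%. Both lists held a peak at 38 members, the Standard list alone at 18, the ELS list alone at 4, and neither at 33. The length covered per member was short, while single peaks were about as wide as others. The length covered had a median of 940 bp per member with a peak in Standard and 648 bp in ELS, against 5585 and 4431 bp for tested genes with a peak. Single peaks had median widths of 491 and 510 bp against 512 and 478 bp for all peaks of the 2 lists. Their fold enrichment, the authors' value, had a median of 1.96 in Standard and 1.90 in ELS, against 1.96 and 1.92 for all peaks. Each list pools its animals, so no difference between them has a replicate test.

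Around the gene start, H3K79me2 at members covered a short stretch. The profile took the 81 members whose strand was given by a peak named for them or by a promoter sequence. Members with neither were left out, which can raise the shares. Coverage from the RefSeq gene start (GRCm38.p6, with the lists on mm10) was 3.7% at the start itself in the Standard list. It reached 40.7% at 600 bp downstream and was 17.3% at 2000 bp and 7.41% at 3000 bp. In the ELS list it reached 27.2% at 600 bp and was 7.41% at 2000 bp. Over 12062 tested genes taken by the same rule, the Standard list reached its highest share only at 2100 bp (32.1%) and the ELS list at 2200 bp (25.4%). The shares were still 28.4% and 22.8% at 5000 bp. Measured from the start that the lists give, which for some members (Rpl5 and Rpl11 among them) lies inside the RefSeq gene, the middle of the peak lay downstream for 62 of 91 Standard and 42 of 63 ELS peaks, at a median of 452 and 421 bp. The short gene spans given above stand beside this profile, and their part in it was not tested. Peaks of 38 of the 56 Standard and 30 of the 42 ELS members also carried the name of another gene. Some of these names are snoRNAs, such as Snora52 at Rplp2 and Snora7a at Rpl32. Others are protein-coding genes, such as Sphk2 at Rpl18. The share over all genes with a peak was not computed, so this is not read as a result about the members.

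**Figure D4:**
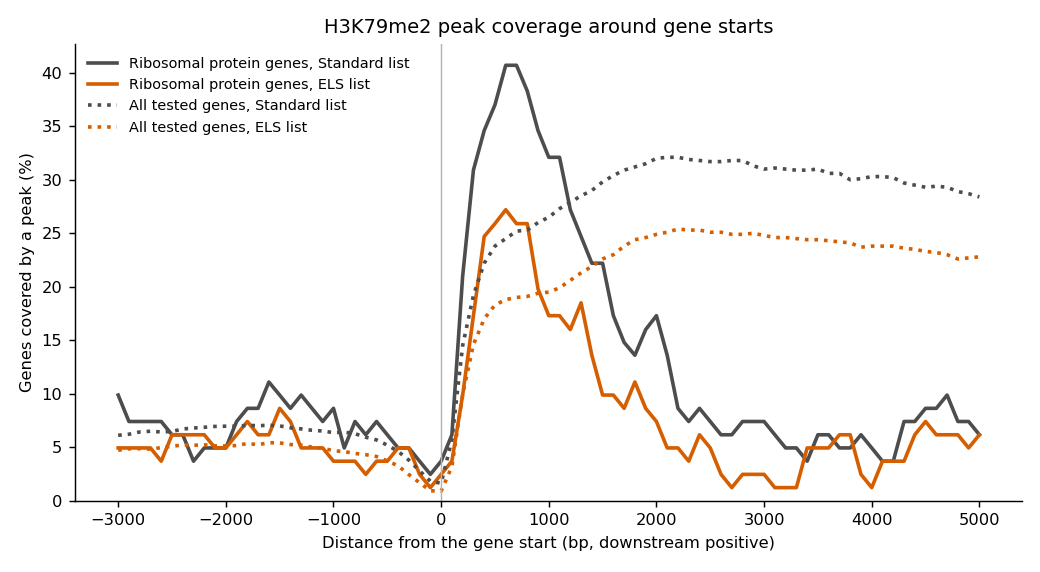
Share of genes (vertical axis, %) whose H3K79me2 peaks cover each distance from the gene start (horizontal axis, bp, downstream positive), in the Standard and ELS lists. Drawn are 81 ribosomal protein genes (solid) and 12062 tested genes (dotted) with a strand known from a named peak or a promoter sequence. Member coverage is highest at 600 bp, with 40.7% (Standard) and 27.2% (ELS), and is low again by 3000 bp, where the dotted lines stay near their highest share.

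Covered length was longer in the Standard list at 53 of the 60 members with a peak and longer in ELS at 7. The same held for 93.9% of tested genes with a peak (members: 88.3%), and the whole Standard list covers 126 Mb and the ELS list 92.6 Mb. Where both lists had a peak, the ELS length was a median of 0.685 times the Standard length at members and 0.734 times at tested genes. A peak in the Standard list alone was found at 30.0% of members with a peak and at 8.58% of tested genes with one, and a peak in ELS alone at 6.67% and 1.32%. Covered lengths of members are also shorter, as given above, and the part of this in the shares was not tested. Of the Standard peaks of members 51 of 91 (56.0%) overlapped an ELS peak by at least 1 bp, and of the ELS peaks 57 of 63 (90.5%) overlapped a Standard peak.

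The longest H3K79me2 length was at Rps27rt, with 5900 bp in Standard and 1498 bp in ELS, where the peaks lie within the span of Osbpl10 and no Rps27rt RNA was counted. Rps15a followed with 4272 and 2961 bp, from chr7:118113309-118116012 in its widest Standard peak (fold 2.35). Rps3, at the mRNA entry of the small subunit, had 4181 and 2289 bp, with its widest Standard peak at chr7:99481259-99483463 (fold 2.40). Rpl22 had 3671 and 2921 bp and the highest fold of all members in both lists, 2.93 in the Standard peak chr4:152325871-152329348 and 2.83 in ELS. Rpl7a had 3369 and 3309 bp, nearly equal in the 2 lists. Its wider Standard peak was centred at -2431 bp from the listed start, upstream of the gene, and its RNA stood at a median of 10.9 CPM in Standard GFP.

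Of the most abundant members, Rpsa had a peak in the Standard list alone, chr9:120127867-120128348 (481 bp, fold 2.13, q-value 4.8e-07), just downstream of the start in the promoter window printed above. Rpl4 had 1670 bp in Standard and 1410 bp in ELS. Rpl26 and Rplp1, as well as Rps6, Rpl8, Rpl17 and Rpl10a, had no peak in either list. The median RNA level was 16.1 CPM for members with a peak in both lists, 13.6 CPM in the Standard list alone, 8.32 CPM in ELS alone and 12.4 CPM with none, with members at 0 included. Others in the Standard list alone were Rpl23a (332 bp, fold 2.30), Rps10 (444 bp, fold 2.11), Rpl23 (401 bp, fold 2.04) and Rpl38 (288 bp, fold 2.04). The 4 in the ELS list alone were Rps28 (510 bp, fold 2.18), Rps3a1 (400 bp, fold 1.83), Rps21 (235 bp, fold 1.57) and Rps13 (238 bp, fold 1.55). The Rps28 peak has its middle at -2995 bp from the start, upstream of it, and overlaps a Standard peak that is not named for Rps28.

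**Figure D5:**
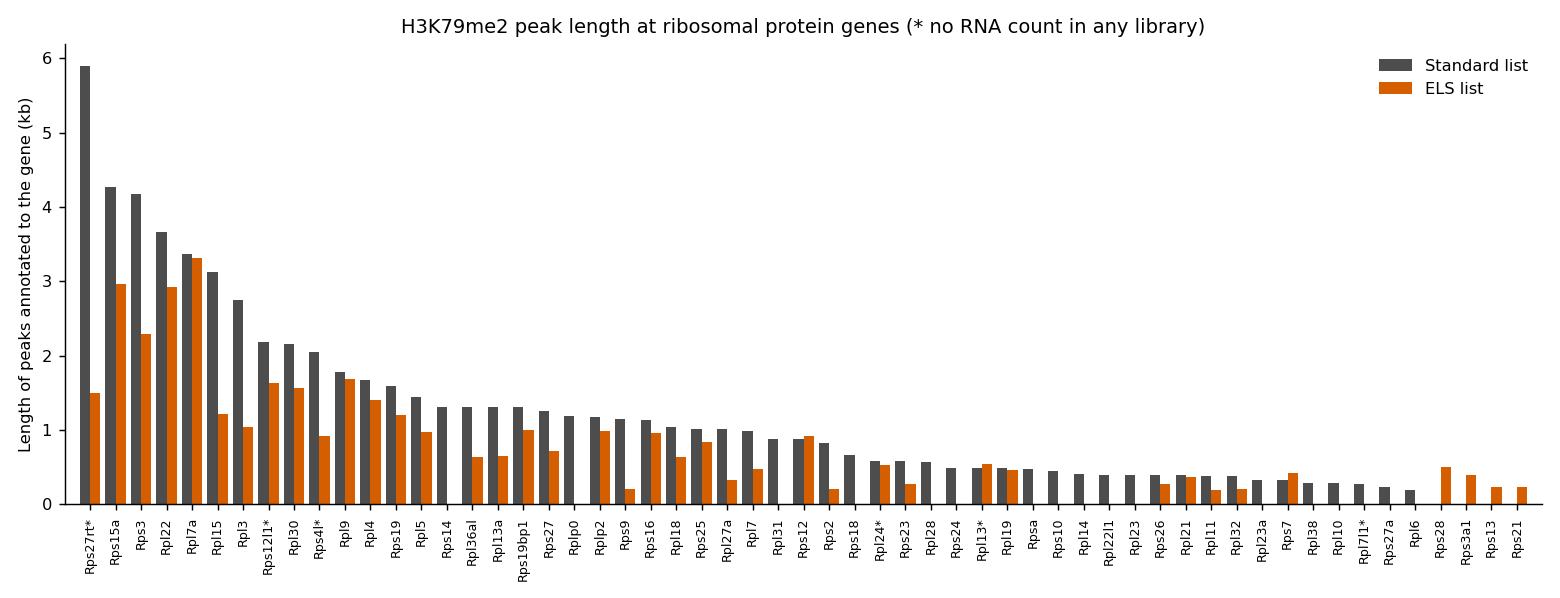
Length covered by H3K79me2 peaks (vertical axis, kb) at 57 ribosomal protein genes with a peak, in the Standard and the ELS list (bars, 1 list each, no replicate), ordered by Standard length, with members without any RNA count starred. The Standard bar is the longer one at 50 of these 57 members, and Rpl13, Rps12 and Rps7 are among the 7 exceptions.

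H3K79me2 was present at members whose RNA was listed at 0. Rpl13, whose promoter is printed above, had a Standard peak at chr8:123102716-123103209 (493 bp, fold 2.22, q-value 1.35e-11) and an ELS peak of 543 bp (fold 1.60). Rpl24 had chr16:55967092-55967683 in Standard (591 bp, fold 2.30, q-value 6.29e-09) and 526 bp in ELS (fold 1.93). In all, 6 of the 10 members at 0 counts had a peak, 5 of them in both lists, and Rpl35, Rpl35a, Rpl32l and Rps3a3 had none. Peaks at overlapping models cannot be assigned to 1 gene by position alone.

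The members under an unadjusted p of 0.05 for ELS in RNA had the following H3K79me2 lengths, beside those of Rpl22 and Rpl7a given above. Rpl18, lower in ELS by its fitted value, had 1037 bp in Standard and 637 bp in ELS, all upstream of the start that the lists give for it. Rpl15, higher in ELS, had 3123 bp in Standard and 1216 bp in ELS. Its ELS peak and its widest Standard peak (2122 bp) have their middles at -2344 and -2763 bp from the listed start, upstream of it. A Standard peak of 589 bp lies downstream. In both lists Rpl15 shares peaks with Nkiras1. Rpl10a, higher in ELS, had no peak. Rpl31 had 887 bp and Rpl6 197 bp, both in the Standard list alone, and Rpl21 had 394 and 368 bp. Rps12, of the overexpression comparison, had 877 and 921 bp. The Standard length was the longer one at Rpl18 and Rpl15, whose RNA values lie on opposite sides, and no relation between the 2 measures was tested.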

How the data were processed

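The members and the gene lists were chosen with earlier results of these data known. RNA values are whole-number counts per gene as deposited, with no normalization by the authors. Tools and build per the submitters' processing notes were FastQC, HISAT2, featureCounts, DESeq2 and mm10. The sources used here give neither their settings nor the use of strand nor the rule for overlapping genes. Each peak of the 2 deposited lists, 1 per rearing group, carries, per the file headers, a q-value and a fold ratio, and the sources used here name neither the caller nor how libraries were pooled. Counts were fitted with edgeR 4.0.16 (R 4.3.3; TMM, filterByExpr, robust quasi-likelihood test, 28 residual degrees of freedom) over the 32 libraries, with Benjamini-Hochberg adjustment over 14016 genes and a threshold of 0.05. Standard errors (SE) of log2 fold changes are the fold change over the square root of F. The fit was tested on simulated data with less spread between libraries than was fitted here (common biological coefficient of variation 0.566). That test does not show which changes could be found at the spread of these data. DESeq2 1.42.0 and limma 3.58.1 were alternatives, with other scalings, filters and left-out libraries. Replicates were numbered in accession order. Named genes were up to 8 per direction and comparison with the smallest p, the 10 most abundant members, paralogs with a trailing l, l1 or l2, and those with the longest or list-specific peaks. RefSeq (GRCm38.p6) gave spans and promoters. Some genes that these rules pick are not reported here.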

Additional observations from a re-analysis of the deposited data

Results flagged for a closer look

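Within each group of 8 libraries, the named members were screened for a highest or lowest library whose gap to the nearest other took up more of the group's range than Dixon's 95% critical value. This happened in 18 of 112 groups of values, 16.1%. The critical value is set for about 1 in 20 with normally distributed values, which CPM need not be. The same screen gave 15% over all 75 tested members and 23.9% over all genes tested.

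In Standard GFP, replicate 5 had 224 CPM of Rpl4 (others 47.8 to 101), 79.3 CPM of Rpl34 (8.93 to 22.3) and 54.6 CPM of Rps27 (9.22 to 24.1), and 0 CPM of Rpl10a (6.21 to 11.1). Replicate 6 had 226 CPM of Rpl6 (20.5 to 38.6) and replicate 3 had 17.7 CPM of Rps16 (0 to 6.21). Replicate 5 is a shallow library. In ELS GFP all 5 such values belonged to replicate 2. It had 212 CPM of Rpl4 (51.7 to 75.7), 71 CPM of Rpl7a (8.59 to 28.7), 67.8 CPM of Rpl31 (2.86 to 22.3), 24.5 CPM of Rpl10a (8.39 to 14) and 20.7 CPM of Rps16 (5.35 to 9.33).

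With overexpression, replicate 1 had 219 CPM of Rpl32 (19.8 to 28.3), 148 CPM of Rplp2 (29.4 to 57.7), 102 CPM of Rps9 (15.5 to 35.6) and 73 CPM of Rpl22 (17 to 36.7). Replicate 2 had 111 CPM of Rpl6 (28.2 to 42) and 46.4 CPM of Rpl31 (9.75 to 26.8), and replicate 8 had 16 CPM of Rps12 (1.65 to 7.44). The libraries labelled knockdown had no such value.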

How the results depend on the processing

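The members' median stayed above 0 in every alternative run. Members minus all genes was 0.06 to 0.08 for ELS, 0.20 to 0.22 for overexpression and 0.10 to 0.13 for knockdown over 5 scalings. Library totals alone, an alternative chosen after seeing the data, moved the knockdown median of all genes to 0.11 and that of members to 0.20. These counts of members past the thresholds moved by over 1.5 times. For ELS, the count lower at an unadjusted p under 0.05 was 1 with the title number as a replicate block, 2 without libraries under 1 M counts, 2 with library totals, 1 with the 2 groups alone and 0 with limma voom. The count higher was 2 without shallow libraries, 2 with library totals, and 7 with limma voom and with DESeq2, which called 1 member past an adjusted p of 0.05. For overexpression, the lower count was 0 without shallow libraries, with the 2 groups alone and with limma voom, and the higher count was 4 with the 2 groups alone. For knockdown, the lower count was 1 with RLE factors, the block and the 2 groups alone, and 2 with DESeq2. The higher count was 1 without shallow libraries, with library totals, the 2 groups alone and limma voom. Over any group, 11 members were under an unadjusted p of 0.05 with no filter on low counts. At a fold of 2 or more, 35 members had a Standard peak and 18 an ELS peak. The shares of all tested genes at that fold were not computed, so these counts are not read as a result about the members. Shares of all genes at an unadjusted p are not given here for other settings or with a library left out. The member counts under those settings therefore have no background beside them. The causes of these moves were not tested. With the block, whose title numbers the labels tie to no animal, the medians were 0.12, 0.23 and 0.08, the any group count was 6, and the overexpression higher count was 7.

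With 1 library left out, the ELS counts ran from 2 to 7 higher and 2 to 5 lower (median 0.01 to 0.18), those for overexpression from 4 to 10 and 0 to 2 (0.15 to 0.31), and those for knockdown from 0 to 1 and 0 to 2 (0.01 to 0.15). The adjusted count was 0 in each case. Of 48 values for named genes, 12 changed sign somewhere. For ELS, Rpl22 turned to 0.26 without shallow libraries and 0.04 with limma voom. Rpl6 had 0.03 with limma voom, 0.05 with DESeq2 and 0.09 without Standard GFP replicate 6 (range with 1 library left out -0.96 to 0.09), and Rpl21 had 0.03 with limma voom. Rpl26 had 0.15 without shallow libraries and 0.03 with limma voom, and Rpl34 had 0.31, 0.26 and, without Standard GFP replicate 5, 0.20 (range -0.47 to 0.20). For overexpression, Rpl18 had 0.04 and Rpl21 0.12 with limma voom. Without shallow libraries, with limma voom and without 1 Standard GFP library, Rpl34 had 0.13, 0.14 and 0.01 (range -0.67 to 0.01), Rpl22 had 0.72, 0.28 and 0.10 (-0.78 to 0.10), Rpl4 had 0.12, 0.13 and 0.12 (-0.34 to 0.12), and Rpl26 had 0.22, 0.17 and 0.01 (-0.28 to 0.01). Rpl6 had 0.07 with library totals, 0.36 with limma voom, 0.62 with DESeq2 and 0.67 without Standard GFP replicate 6 (range -0.56 to 0.67). Depth limits the members under 10 CPM, which had few counts in the libraries under 1 M.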
